A study of Homo sapiens with 7 samples.

Results

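Genomic regions occupied in HepG2 cells carrying PPARα and ERα were compared with those occupied in cells carrying PPARα and ERβ, using the authors' peak lists from chromatin immunoprecipitation with an antibody to PPARα. Peaks of the 4 lists were merged wherever they overlapped by at least 1 bp (chromosomes 1 to 22 and the X), which gave 70497 regions. A region differed when both libraries of one group had a peak and neither library of the other did. By that rule 17018 regions differed. Of these, 8063 had peaks with ERα only (11.4% of merged regions) and 8955 with ERβ only (12.7%). These counts follow from the rule and carry no test. They are called ERα-only and ERβ-only regions, and the 2 lists of each group library 1 and library 2.

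HepG2 is an established line from a human hepatocellular carcinoma. All cells received a PPARα expression vector and the PPARα agonist WY14643, which the labels also write as Wy13643, at 10 µM for 2 h. The ERα group also received an ERα vector and was exposed beforehand for 45 min to 10 nM PPT, an ERα-selective agonist. The ERβ group also received an ERβ vector and 10 nM DPN, an ERβ-selective agonist, for the same 45 min. Agonists were given from 48 h after transfection, so the receptors came from transient overexpression and each group differs from the other in vector and ligand together. The labels do not say that the 2 libraries of a group came from separate cultures, and they give both the same S number. Every SD and permutation p therefore measures variation between these libraries, which may be technical. Gene expression was not measured, so the liver identity of the cells could not be checked from these data. The series also holds 2 PPARα-alone libraries, given WY14643 only, and a no-antibody sample that was not analysed here.

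PPARα is a fatty-acid-sensing nuclear receptor that pairs with RXR and binds direct repeats of the hexamer AGGTCA, and in liver it drives genes of fatty acid oxidation, ketone production and lipid transport. ERα and ERβ are estrogen-activated receptors of the same superfamily that bind inverted repeats of that hexamer and share coactivators with PPARα. A peak shows that fragments piled up at a place. Whether PPARα itself held it was not tested.

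The sequences below come from RefSeq promoter windows of GRCh38.p14, which span 250 bases before to 50 bases after a gene's start. They are shown because the peaks of both libraries of a group stopped at the very same base there. Each line gives 51 bases of the plus strand centred on that base. The capitals mark the 15 bases that run inward from the shared edge, the edge base included. ERα-only regions come first, with COG4, a Golgi tethering subunit, MCMBP, a partner of the replicative helicase, and ANTXR2, a cell-surface anthrax toxin receptor.
COG4, peak end, chr16:70523617-70523667: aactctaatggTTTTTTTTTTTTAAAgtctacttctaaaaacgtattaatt
MCMBP, peak start, chr10:119873670-119873720: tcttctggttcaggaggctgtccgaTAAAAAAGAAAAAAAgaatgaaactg
ANTXR2, peak end, chr4:80073572-80073622: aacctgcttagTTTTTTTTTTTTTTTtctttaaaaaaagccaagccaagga
The ERβ-only regions are those at SPOCK2, an extracellular proteoglycan, KRT33A, a hair keratin, IL18R1, the interleukin-18 receptor, ABI3BP, a matrix protein, and NFIB, a transcription factor of the nuclear factor I family.
SPOCK2, peak start, chr10:72088600-72088650: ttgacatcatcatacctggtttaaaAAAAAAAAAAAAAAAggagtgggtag
KRT33A, peak end, chr17:41350885-41350935: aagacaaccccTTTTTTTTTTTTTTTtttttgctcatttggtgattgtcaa
IL18R1, peak end, chr2:102356197-102356247: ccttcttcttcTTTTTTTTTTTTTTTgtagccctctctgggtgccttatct
ABI3BP, peak start, chr3:100993539-100993589: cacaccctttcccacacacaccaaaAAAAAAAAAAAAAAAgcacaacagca
NFIB, peak end, chr9:14532203-14532253: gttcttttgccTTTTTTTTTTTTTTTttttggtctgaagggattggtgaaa

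In every one of these, peak starts sit on a tract of A and peak ends on a tract of T, and the tract stops exactly where the capitals stop on the side inside the peak. All 18 shared edges that lay inside a promoter window with enough sequence around them carried such a tract. They were 8 of 6456 shared edges in ERα-only and 10 of 8210 in ERβ-only regions. None of the 18 tracts ran past base 15, and 17 of them reached it. The tract at RFTN2, not printed, stopped 1 base before. The other shared edges lay outside these windows and no sequence was read there. A tract was called when at least 12 of the 15 bases were A at a peak start or T at a peak end. Edges of the same kinds of region that only 1 library had were different. Only 6 of 85 such edges in ERα-only regions (7.06%) and 0 of 71 in ERβ-only regions carried the tract. Over all positions of the 34727 distinct promoter windows, 0.0744% would carry it as a start and 0.0740% as an end. Counting all peaks of a library, 22.1% of 113 edges and 24.0% of 121 edges in promoter windows carried it in the ERα libraries, against 29.2% of 89 and 28.3% of 99 in the ERβ libraries. The libraries of both groups thus had it. In all 4, most tracts did not run past base 15 (21 of 25, 24 of 29, 22 of 26 and 24 of 28). Per the labels, libraries were made with a Clontech DNA SMART kit, and the part of library chemistry in these edges was not tested.

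**Figure D1:**
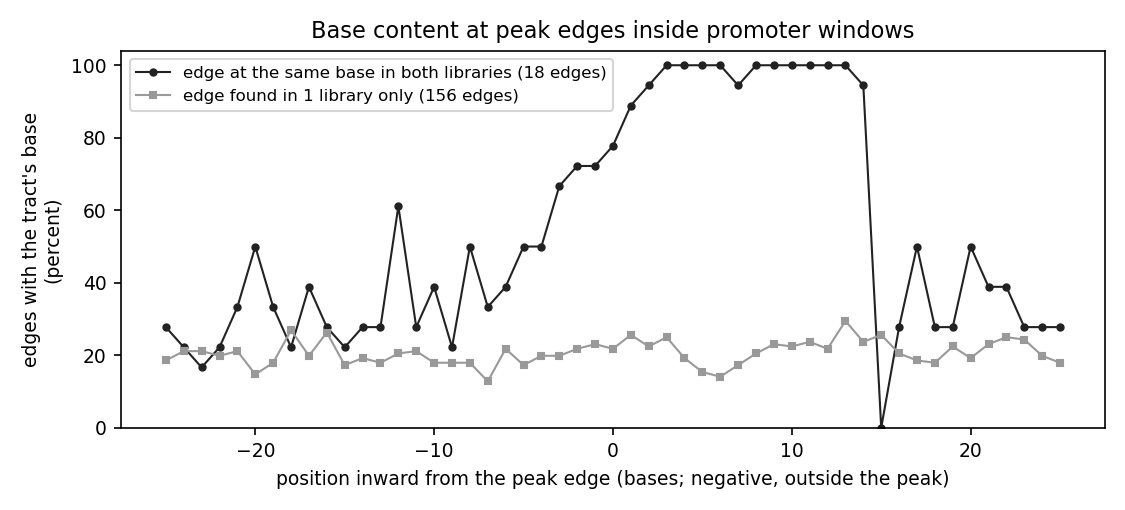
Percent of peak edges (y axis) that hold A at a peak start or T at a peak end, by position inward from the edge in bases (x axis, 0 is the edge base), for 18 edges at the same base in both libraries and 156 edges found in 1 library only. Shared edges reach 100% at most positions inside the peak and drop to 0% at position 15, while edges of 1 library stay below 30%.

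Shared edges were the rule among differing regions. The peaks of both libraries had at least 1 edge at the same base in 6168 of 8063 ERα-only regions (76.5%, Wilson 95% interval 75.6 to 77.4) and in 7879 of 8955 ERβ-only regions (88.0%, 87.3 to 88.6). Intervals of shares cover counting error only. The start was the same in 40.6% and the end in 39.5% of ERα-only regions, and in 45.7% and 46.0% of ERβ-only regions. Both edges were the same in only 3.57% and 3.70%. The shares were also taken by local background. Among regions whose background was at most 3 times the genome-wide level in both libraries, 76.7% of ERα-only and 75.4% of ERβ-only regions shared an edge. Where it was over 10 times, the shares were 72.0% of 189 (65.2 to 77.9) and 92.8% of 4387 regions, so the share was higher at high background in ERβ-only regions and not in ERα-only regions. Regions near a gene end did so at 74.7% (ERα-only) and 86.2% (ERβ-only). Shared edges also crossed the groups. Where an ERα and an ERβ library both had a peak, 63.1% to 65.7% of regions had an edge at the same base, over the 4 pairings of libraries.

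**Figure D2:**
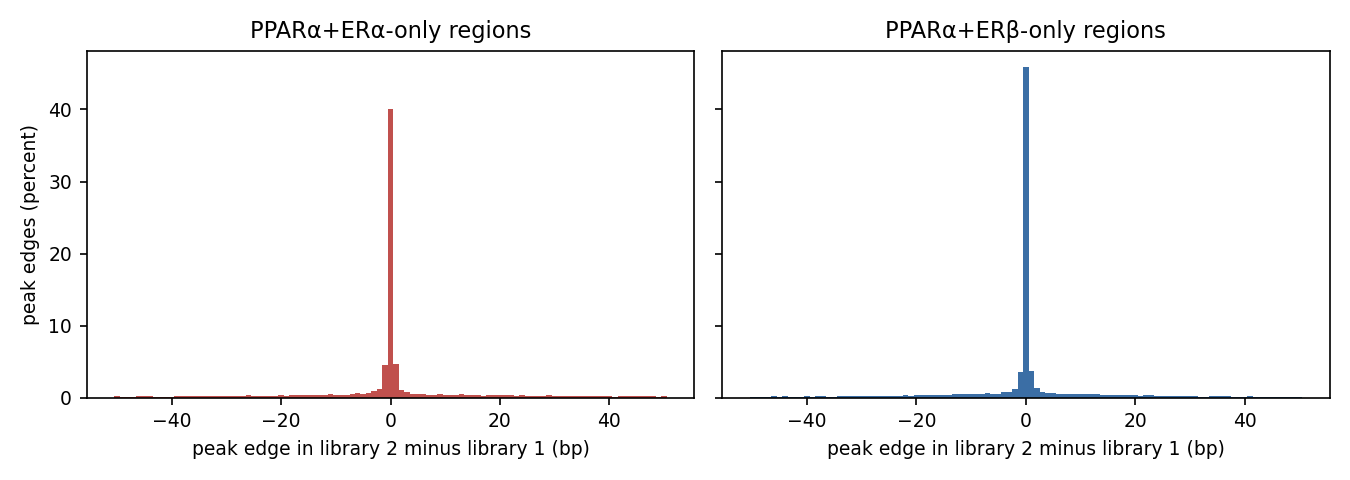
Percent of peak edges (y axis) by the distance in bp between the edge in library 2 and in library 1 (x axis), for ERα-only regions (left) and ERβ-only regions (right). A single spike at 0 bp holds 40.0% of edges on the left and 45.8% on the right, and distances of 1 bp either way hold under 5% each.

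Peaks that mark the ERα-only regions were shallow and rose from a low background, while those of the ERβ-only regions were deep and rose from a high one. The number of fragments stacked at each summit, recovered from the deposited fold and p, had a median of 10 and 11 in libraries 1 and 2 of ERα for ERα-only regions. For ERβ-only regions the medians were 30 and 36 in the ERβ libraries. The quartiles, 8 to 13 and 8 to 14 against 20 to 42 and 24 to 49, did not overlap. At least 20 fragments in both libraries were found in 4.17% of ERα-only and 74.3% of ERβ-only regions. Local background is given as a multiple of the genome-wide level of the same library. Its medians were 1.45 and 1.49 at ERα-only regions and 9.89 and 10.96 at ERβ-only regions. It was at most 3 times in both libraries at 78.7% of ERα-only but 15.6% of ERβ-only regions, and over 10 times at 2.34% and 49.0%. At many single regions both libraries of a group had nearly the same background, such as 2.43 and 2.39 at COG4 and 18.6 and 18.3 at NFIB. At others it differed, such as 7.71 and 3.85 at F5. Whether a group's libraries shared a control is not given. The SD and p of background may therefore not rest on separate measures of it. The contrasts in fragments and background describe whole lists and not only the regions that differ. The 4 lists held 24505 and 27544 peaks with ERα and 17457 and 23302 with ERβ. Across all peaks of a list the median was 9 and 10 fragments with ERα and 27 and 29 with ERβ (9.5 ± 0.707 against 28 ± 1.41, SD, n = 2). Background medians were 1.60 ± 0.0557 with ERα and 8.93 ± 0.579 with ERβ (SD, n = 2), and the groups did not overlap in either. With 2 libraries against 2 the smallest exact two-sided permutation p is 0.33, which both reached (Benjamini-Hochberg 0.33 over 5 measures), so neither could pass 0.05.

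**Figure D3:**
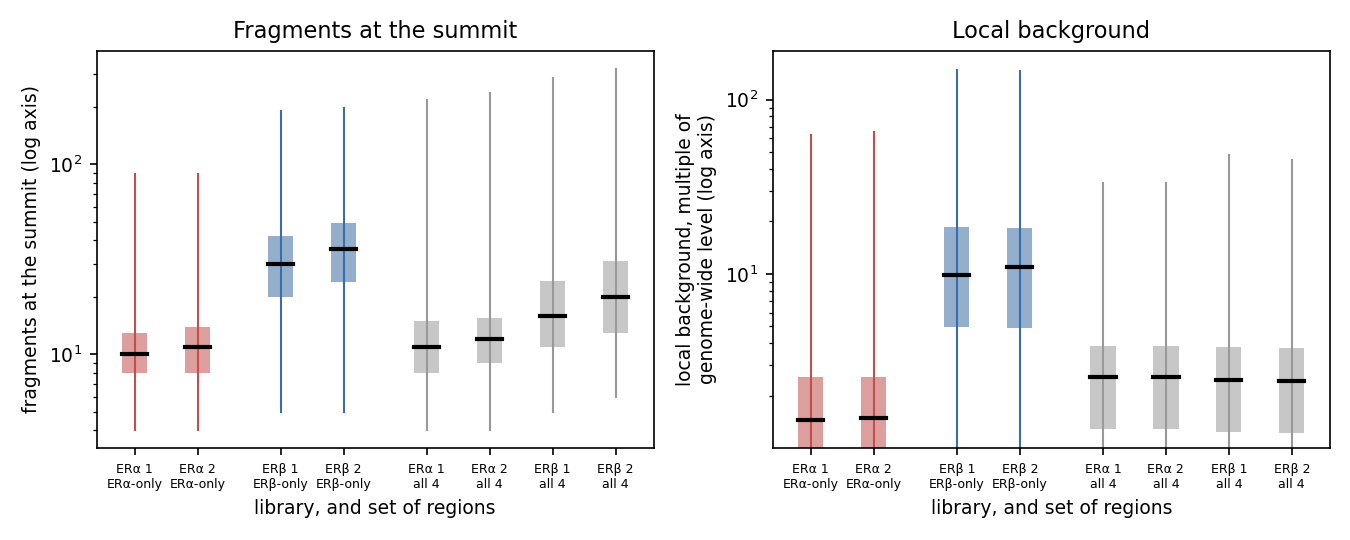
Fragments at the summit (left) and local background as a multiple of the genome-wide level (right), both on log axes, for each library in ERα-only regions, ERβ-only regions and regions with peaks in all 4 libraries. Boxes span the quartiles, black lines are medians and thin lines run from the lowest to the highest region. ERβ-only regions sit higher on both scales, and at regions of all 4 libraries the background medians lie between 2 and 3.

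The ERα libraries were also the sparser ones, at 779.7 and 725 bp of genome per background fragment against 537 and 449.8 bp with ERβ (a density read from the lists, since read totals were not used here). Depth, background and group move together here and cannot be told apart. Restricting all lists to peaks with a background of at most 3 times the genome-wide level turned the order of the directions, with 6369 ERα-only and 1400 ERβ-only regions. Leaving out a library made a direction rest on 1 list. It raised the ERα-only count to 25443 without ERα library 1 and 22576 without library 2, and the ERβ-only count to 20842 without ERβ library 1 and 15441 without library 2. Most regions of the merge were of that kind, with 31883 in a single ERα list and 18366 in a single ERβ list. Around the rule's edge, 496 regions had both ERα peaks and 1 ERβ peak, 941 had both ERβ peaks and 1 ERα peak, and 307 had all 4. The larger of the 2 ERα fragment numbers had a median of 12 in ERα-only regions, 13 where 1 ERβ library joined and 9 where only 1 ERα library had a peak. For ERβ these medians were 37, 21 and 27.

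The PPARα-alone libraries, which the rule did not use, overlapped the directions to unlike extents. The same shares were not taken over all merged regions or over whole lists. Whether the contrast is particular to the differing regions is therefore not known. Of the ERα-only regions 98.8% had no peak in either PPARα-alone library, 1.09% had one in a single library, and 10 regions had one in both. Of the ERβ-only regions 12.6% had none, 21.3% had 1, and 66.0% (5913 regions) had peaks in both. Of the 307 regions of all 4 libraries, 95 had none (30.9%), 89 had 1 (29.0%) and 123 had peaks in both (40.1%). The PPARα-alone libraries resembled the ERβ libraries in density, at 537 and 471 bp per fragment, and in local background, with medians of 13.5 and 15.7 times. The part of density and background in this overlap was not tested, and regions of 1 library pair are not replicates, so no p is given.

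**Figure D4:**
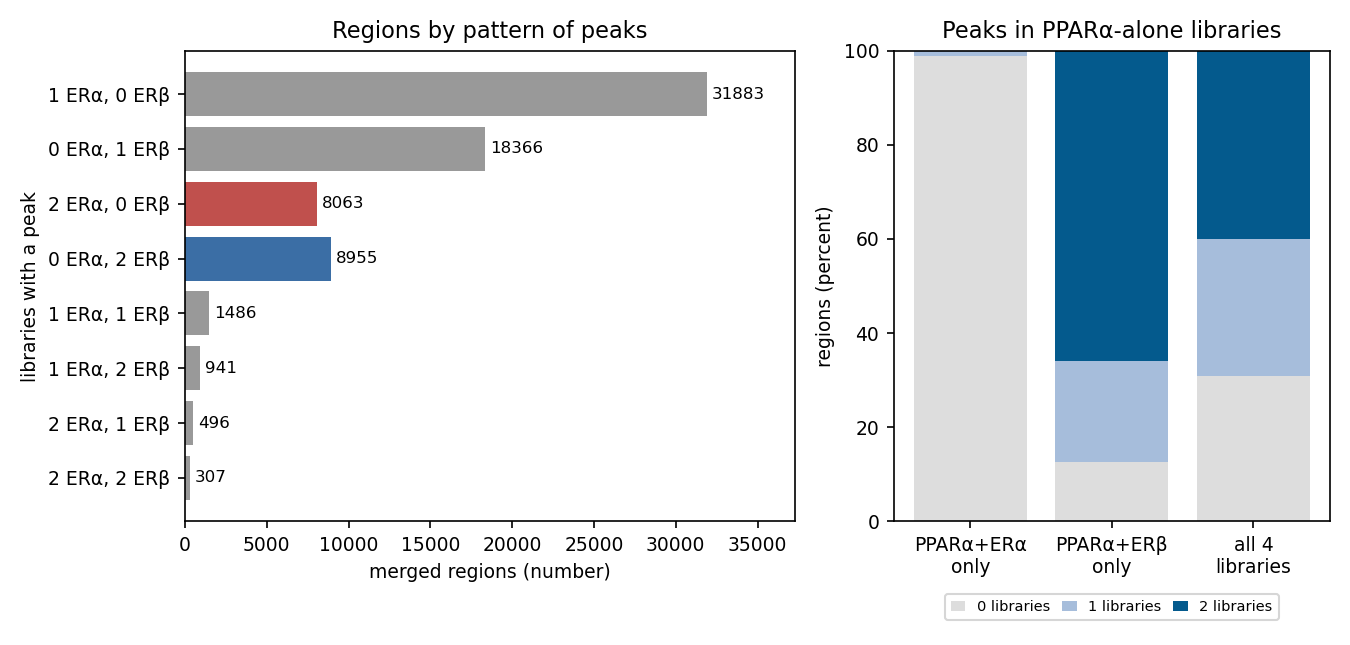
Left, number of merged regions (x axis) by how many ERα and ERβ libraries had a peak (y axis). Right, percent of regions (y axis) with a peak in 0, 1 or 2 PPARα-alone libraries, for ERα-only regions, ERβ-only regions and regions of all 4 libraries. Regions in a single list are the most frequent, and 66.0% of ERβ-only but almost none of the ERα-only regions had peaks in both PPARα-alone libraries.

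Place relative to genes was nearly the same in both directions. A summit lay within 3 kb of a gene end in 17.9% of ERα-only regions (1442, interval 17.1 to 18.7) and 18.2% of ERβ-only regions (1629, 17.4 to 19.0), against 17.8% of all merged regions. Inside a gene but farther from its ends lay 51.7% and 52.2%, and more than 50 kb outside any gene lay 7.45% and 7.21%. The nearest gene end was a median of 13940 bp away in ERα-only and 13019 bp in ERβ-only regions, and the nearest end of a protein-coding gene 41869 and 35198 bp. Protein-coding genes were nearest to 60.9% and 62.1%, long noncoding RNA genes to 27.4% and 26.3%, and pseudogenes to 9.90% and 9.48%. At the level of libraries, 17.5% ± 0.0182 of ERα and 18.3% ± 0.236 of ERβ summits were near a gene end (SD, n = 2). Inside genes lay 62.3% ± 0.260 and 62.9% ± 0.422 (SD, n = 2). Both differences had the smallest exact permutation p possible, 0.33.

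RefSeq promoters gave the start for 13792 of 19974 protein-coding genes, and there the ends could be told apart. Of pairs of a gene and a region near it, 59.6% of 597 ERα-only pairs (55.6 to 63.5) were near the start alone, 52.9% of 611 ERβ-only pairs (48.9 to 56.8) and 52.6% of 4748 pairs of all regions. Near the finish alone were 37.5%, 41.4% and 43.8%. Within 500 bp of the start lay 8.04%, 5.89% and 5.03%. Intervals of the directions overlap in each case. Those of ERα-only pairs do not overlap those of all regions, which include them, near the start alone (51.2 to 54.0 for all), near the finish alone (33.7 to 41.5 against 42.4 to 45.2) and within 500 bp of the start (6.12 to 10.5 against 4.45 to 5.69). Those of ERβ-only pairs do.

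Widths differed in the tail more than in the middle. Median width was 375 bp in ERα-only regions (quartiles 343 and 433) and 382 bp in ERβ-only regions (348 and 427), against 348 bp for all merged regions and 457 bp for those in all 4 libraries. Regions of 600 bp or more made up 9.09% of the ERα-only set (733, interval 8.48 to 9.74) and 5.09% of the ERβ-only set (456, 4.66 to 5.57). Median peak widths in the single lists were 339 and 341 bp with ERα and 345 and 356 bp with ERβ (exact two-sided permutation p = 0.33, n = 2). The widest ERα-only regions lay in SPRED2, a brake on Ras signalling, at chr2:65362087-65363529, in STAT5B, a transcription factor of cytokine and growth hormone signalling, at chr17:42244099-42245533, and in TCAIM. SPRED2 had 22 and 23 fragments in the ERα libraries over a background of 1.00 in both. Among ERβ-only regions the widest inside genes were in MRTFA, an actin-regulated coactivator, at chr22:40507985-40509295, with 39 and 40 fragments over a background of 13.6 and 13.4, and in ZNRF3, a ubiquitin ligase that dampens Wnt signalling.

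Chromosomes did not share the directions evenly. Chromosome 2 held 15.3% of ERα-only and 11.2% of ERβ-only regions, and chromosome 20 held 5.95% and 3.45%. Chromosomes 14 and 16 leaned the same way, with 4.77% and 4.75% of ERα-only against 3.99% and 3.96% of ERβ-only regions. The X chromosome held 0.707% and 2.01%, and chromosome 19 held 1.46% and 2.51%. In the single lists the shares of both ERα libraries lay on the same side of both ERβ libraries for chromosomes 2, 14, 19, 20 and X. Chromosome 16 was the exception, with 4.09% and 3.89% of ERα peaks and 3.62% and 3.995% of ERβ peaks. Chromosome 20 had 4.09% and 3.75% of ERα peaks against 3.08% and 3.03% of ERβ peaks, and the X had 1.47% and 1.32% against 2.43% and 2.60%. HepG2 is known to carry extra copies of chromosomes 2, 14, 16, 17 and 20, and their part in these shares was not tested. On chromosome 17, also gained, ERα-only regions were not the more frequent, at 3.19% against 3.80%.

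**Figure D5:**
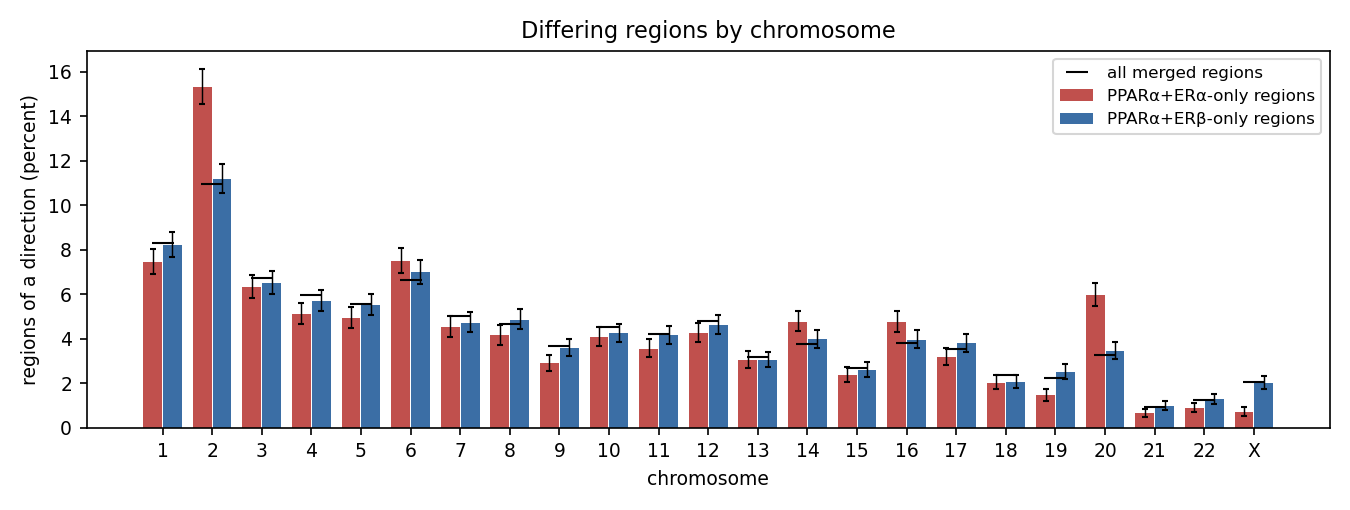
Percent of ERα-only (red) and ERβ-only (blue) regions on each chromosome, with Wilson 95% intervals as error bars and the percent of all merged regions as a black dash. ERα-only regions exceed ERβ-only regions on chromosomes 2 and 20 and fall below them on 19 and X, with intervals that do not overlap.

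Regions of opposite direction cannot overlap under the rule, and no distance between regions of the same direction was taken as a reference. Within 1 kb of a region of the other direction lay 12 regions of each. Within 10 kb lay 7.32% of ERα-only and 6.54% of ERβ-only regions, and median distances were 90.6 and 106 kb. Near gene ends, 1743 genes of any type had an ERα-only region and 1967 an ERβ-only region, 13.1% and 14.8% of the 13262 genes with any merged region there. For protein-coding genes the counts were 810 and 844, or 14.5% and 15.1% of 5602. Both directions met at 36 of them, 4.44% of the first and 4.27% of the second. These percentages are the background for the gene groups that follow, and a group's share near them is no result about the group. All gene lists were chosen with earlier results of these data known, so their counts are not independent evidence. The nearest gene is named by distance alone.

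Fatty acid oxidation, the process PPARα is best known to drive, had 15 genes with any region near an end, of which 5 had an ERα-only and 3 an ERβ-only region. ETFA passes electrons from the acyl-CoA dehydrogenases to the respiratory chain. Its region, chr15:76311605-76311947, had 24 and 23 fragments in the ERα libraries and no peak in either ERβ library, with a summit 338 bp before the gene. ACSL3, which activates fatty acids as CoA esters, had 22 and 18 fragments at chr2:222860249-222860671. HADHA, the trifunctional protein subunit that handles long chains, had 13 and 12 over a background of 1.49 in both. ACADM, the medium-chain acyl-CoA dehydrogenase, was one of the few with a high background, 12.8 and 14.1, and had 27 and 34 fragments. As the rule requires, each of these 4 had peaks in both ERα libraries. None of them had a PPARα-alone peak. ECH1, an isomerase of unsaturated fatty acids, had 62 and 94 fragments in the ERβ libraries over a background of 27.2 and 25.6, and no ERα peak. SLC25A20, the carrier of acylcarnitine into mitochondria, had 10 and 25 fragments at chr3:48857595-48857983, with peaks in both PPARα-alone libraries. ACADL, the long-chain dehydrogenase, had regions of both directions.

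Other PPARα lipid targets, a list of 54 genes, had 16 with any region near an end, 1 with an ERα-only and 0 with an ERβ-only region. Against backgrounds of 14.5% and 15.1% these numbers are too small to set the list apart. CYP4F2, a fatty acid omega-hydroxylase, had the ERα-only region, of 7 and 9 fragments. Cholesterol and fatty acid synthesis had 15 genes with any region and 2 in each direction. Those with ERα included FDPS, which makes farnesyl diphosphate. The FDPS region, of 18 and 11 fragments, lay 884 bp from that gene and inside PKLR, and is counted again under glycolysis. Those with ERβ included CYP51A1, the lanosterol demethylase, at 27 and 29 fragments. Glycolysis and gluconeogenesis had 4 of 14 with ERα (ALDOA, PCK2, PKLR, TPI1) and 2 of 14 with ERβ (ENO1, PFKFB3). The region near TPI1, triosephosphate isomerase, had 8 and 12 fragments 123 bp from the gene. KHK, which starts fructose breakdown, held an ERα-only region of 27 and 30 fragments at chr2:27098479-27098829, inside the gene and 2176 bp from its nearer end. CGREF1 lay 767 bp from the same region.

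Estrogen response genes had 17 members with any region, 3 with ERα-only and 2 with ERβ-only regions, near the background shares of 14.5% and 15.1%. TGFA, a ligand of the EGF receptor, had 16 and 17 fragments with ERα, and CYP1B1, an estrogen-hydroxylating enzyme, 13 and 18. FOS, an immediate-early transcription factor, had 18 and 19 at chr14:75284197-75284709, 2153 bp from the gene. HEY2, a Notch effector repressor, had 31 and 42 fragments with ERβ at chr6:125752429-125752854, and NHERF1, a membrane scaffold, 57 and 65. Each lay in both lists of its group and in neither list of the other, as the rule requires.

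Nuclear receptors themselves had 12 members with any region, 0 with an ERα-only and 2 with an ERβ-only region. RARB, a retinoic acid receptor, had 45 and 60 fragments with ERβ and NR2F2, an orphan receptor, 32 and 41, over backgrounds of 14.8 and 15.8 and of 23.5 and 25.6. Coregulators had 4 of 14 with ERα and 1 of 14 with ERβ. MED1, the Mediator subunit that contacts liganded nuclear receptors, had one of the strongest ERα-only regions near a gene, chr17:39451160-39451572, with 27 and 38 fragments over a background of 3.85 in both libraries, 177 bp before the gene. LCOR, a ligand-dependent corepressor, had 15 and 17 fragments, NCOA2, a p160 coactivator, 12 and 11, and NCOA6, a coactivator of PPARs and ERα, 20 and 19 over a background of 15.4. With ERβ, NCOA4, a coactivator and ferritin receptor, had 82 and 97 fragments over a background of 65.6 and 64.5, a fold of 2.11 and 2.10. Here fold is the authors' enrichment over local background, used only within a list.

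The genes of the transfected receptors carried few differing regions and none near an end. PPARA held 1 ERβ-only region, with 41 and 53 fragments at chr22:46194240-46194583 and peaks in both PPARα-alone libraries. ESR1, the gene of ERα, held 1 ERα-only region of 10 and 10 fragments at chr6:151739860-151740300 and 2 ERβ-only regions. ESR2, the gene of ERβ, held none.

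Among liver genes, 3 of 10 liver transcription factors had an ERα-only region. FOXA1, a pioneer factor for both hepatic and estrogen-receptor enhancers, had 25 and 26 fragments at chr14:37596684-37597020, 1617 bp from the gene. CEBPG, of the C/EBP family, had 11 and 15, and KLF6, a zinc-finger factor, 10 and 15. NFIB alone had an ERβ-only region (35 and 49 fragments), the one whose edge sequence is printed above. Plasma proteins had 3 of 18 with ERα, namely FGG (13 and 17 fragments) of fibrinogen, HPX (8 and 10), which binds heme, and coagulation factor F5 (18 and 29). They had 2 of 18 with ERβ, FGB (41 and 58), also of fibrinogen, and ITIH2 (57 and 91). FGG and FGB sit in the same gene cluster on chromosome 4, and their regions, chr4:154603446-154603797 and chr4:154571470-154571830, fell in opposite directions. Of 10 hepatocyte markers set for this work, FGB was the only one with a differing region near an end.

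Splicing factors had 6 of 18 with ERα and 3 of 18 with ERβ. The splicing and proteasome lists, like all gene lists here, were chosen with earlier results of these data known. Their counts are not independent evidence. Besides SF3B1 and SF3B3 of the SF3B complex, SRSF4 (16 and 20 fragments) and SRSF7 (18 and 19), both serine and arginine-rich splicing factors, had ERα-only regions, while PRPF19 (23 and 29), SNRPF and SF3A1 had ERβ-only ones. SF3B3 shares its region, chr16:70523160-70523642, with COG4, whose 63 and 66 fragments stacked over a background of 2.43 and 2.39 and ended in both libraries at the base shown above. Proteasome genes had 2 of 19 with ERα (10.5%) and 1 of 19 with ERβ (5.26%), beside backgrounds of 14.5% and 15.1%. PSMD1, a subunit of the regulatory particle, had 54 and 61 fragments at chr2:231056478-231056887, 294 bp outside the gene. PSMD12, of the same particle, was in both directions, with 26 and 30 fragments in its ERα-only and 9 and 11 in its ERβ-only region. A further ERα-only region, chr14:35291830-35292167 with 37 and 36 fragments, overlapped promoter windows of PSMA6, a core subunit. It is not in the count because it lay inside the gene's span, more than 3 kb from either end.

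Cytosolic ribosomal protein genes had 10 of 41 with ERα and 5 of 41 with ERβ. RPS10 had 31 and 24 fragments at chr6:34426114-34426508, 314 bp before the gene, and RPS7 15 and 21. RPL29 had 65 and 67 with ERβ and RPL13 58 and 61. Ribosomal protein pseudogenes share sequence with these genes, and how the authors placed reads from shared sequence is not given in the sources used here. Mitochondrial ribosomal proteins had 4 of 30 with ERα and 5 of 30 with ERβ, led by MRPL30 (38 and 46 fragments) and MRPL42 (41 and 44). Respiratory chain and ATP synthase genes had 5 of 35 with ERα, among them COX5B of complex IV (16 and 18) and ATP5ME (13 and 13, 15 bp from a gene end), and 2 of 35 with ERβ, COX7C (43 and 54) and NDUFC1 (49 and 54). Ribosome biogenesis had 4 and 2 of 27, and translation factors with tRNA synthetases 6 and 4 of 51. Heat shock and unfolded protein genes had 4 of 18 in each direction, with the bidirectional pair HSPD1 and HSPE1, mitochondrial chaperonins, under 1 ERα-only region of 25 and 13 fragments.

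Histone, cell cycle and circadian lists had more ERβ-only than ERα-only members, beside backgrounds of 15.1% and 14.5%. Other lists leaned this way too, such as olfactory receptors and cadherins, and others leaned the opposite way. Replication-dependent histones had 1 of 19 with ERα (H4C3, 13 and 14 fragments) and 5 of 19 with ERβ. H3C4 had 86 and 83 fragments at chr6:26195587-26195915, and H2BC4 and H2AC6 shared a region of 59 and 77. Cell cycle and replication genes had 2 of 24 with ERα, MCM2 (12 and 15) and ORC2 (12 and 12), and 5 of 24 with ERβ. CCNE2, a cyclin of S phase entry, had 45 and 45 fragments at chr8:94897218-94897722 over a background of only 3.71 and 3.65, with peaks in both PPARα-alone libraries. E2F8, a repressor of the E2F family, had 24 and 36, CENPA, the centromeric histone, 49 and 59 with its summit 2 bp from the gene, and PCNA, the replication clamp, 44 and 63. Circadian genes had 1 of 13 with ERα (CSNK1E) and 3 of 13 with ERβ. PER2 (26 and 22 fragments) and PER1 (53 and 59), repressors of the clock, had no PPARα-alone peak, and BHLHE40 (65 and 90), another repressor, had one in both. These lists hold few genes, and no test of a list was made.

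The cyclic GMP pathway, which the series title names through PDE9, had 9 genes with any region, 3 with ERα and 1 with ERβ. PRKG1, the cGMP-dependent kinase, had 13 and 16 fragments, NOS3, the endothelial nitric oxide synthase, 8 and 7, and PDE6B shared the region of ATP5ME. NPR1, the receptor for atrial natriuretic peptide, had 15 and 21 fragments with ERβ at chr1:153690955-153691333. PDE9A had no differing region near an end.

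Families not tied to liver were counted as well. Zinc-finger ZNF genes had 21 and 24 of 163, olfactory receptors 7 and 10 of 56, homeobox genes 4 and 4 of 20, potassium and calcium channels 4 and 4 of 24, and cadherins and protocadherins 2 and 4 of 16. ZNF556 led its family with ERα at 28 and 20 fragments, and ZNF487 with ERβ at 78 and 91. Marker lists of other cell types gave 1 gene or none per direction, such as RBFOX3 of neurons (ERα, 13 and 7 fragments) and RETN of adipose tissue (ERβ, 7 and 9). Among blood markers LYZ had both, with 15 and 12 fragments at chr12:69345360-69345683 and 45 and 56 at chr12:69347756-69348223.

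Of the 36 genes with regions of both directions, ACADL, PSMD12 and LYZ are named above and 3 more are described here. CDH1, E-cadherin, had an ERα-only region at chr16:68738620-68738951 (13 and 20 fragments, background 1.00) near one end and an ERβ-only region at chr16:68833606-68833976 (35 and 37, background 6.18 and 4.12) near the other. NME6, a nucleoside diphosphate kinase, had them less than 1 kb apart, at chr3:48301047-48301453 (8 and 9 fragments) and chr3:48301904-48302279 (23 and 27). ARL6IP1, an endoplasmic reticulum shaping protein, had 2 regions of each direction. At CDH1, NME6 and ARL6IP1 all ERβ-only regions had a peak in at least 1 PPARα-alone library, and none of the ERα-only ones did. Over all regions, 12.6% of ERβ-only and 98.8% of ERα-only regions had no such peak. The pattern is thus no result about these genes.

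Inside gene spans, 2810 protein-coding genes held ERα-only regions and 3294 ERβ-only regions, of 10056 with any, and 1215 held both (43.2% and 36.9%). Such genes were long, with a median of 111 kb and 102 kb against 24.2 kb for all protein-coding genes. The median of the 10056 genes with any region was not taken. Length therefore cannot be called a trait of the differing regions, and the genes holding both had no reference either. MACROD2, a mono-ADP-ribosyl hydrolase gene of 2058 kb on chromosome 20, held 31 ERα-only and 11 ERβ-only regions, more than any other. PLCB1, a phospholipase C gene, held 10 and 6, and PTPRD, a receptor phosphatase, 13 and 6. After MACROD2, the most ERβ-only regions were held by CNTNAP2, a neuronal adhesion gene with 5 ERα-only and 10 ERβ-only regions, and CSMD1, with 4 and 9. ACYP2 (4 and 8), LRP1B (9 and 8) and DPP10 (8 and 8) came next.

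Promoter windows were overlapped by an ERα-only region in 74 cases and by an ERβ-only region in 63, of 34727. Motifs were sought on both strands, and a match is a description of letters only. AGGTCA was found in 10.8% of ERα-only and 6.35% of ERβ-only promoters, against 13.8% of all. The direct repeat with 1 base between is the form that PPARα with RXR binds. It was in 0 of 74 and 0 of 63, which allows up to 4.93% and 5.75%, and in 0.0835% of all. The inverted repeat with 3 bases between, the estrogen receptor form, was also in none of either, against 0.0288% of all. In both repeats GGGTCA was accepted as well as AGGTCA, which the search for the single hexamer did not do. The E-box CACGTG was in 13.5% of ERα-only (interval 7.51 to 23.1) and 4.76% of ERβ-only promoters (1.63 to 13.1), intervals that overlap. It was in 7.22% of all and in 8.67% of the 415 promoters that any merged region overlapped. The cyclic AMP response core TGACGT was in 13.5% and 11.1% (7.96% of all, 10.4% of the 415). CCGGAA, the core bound by ETS factors, was in 24.3% and 27.0% (17.2% and 19.8%). CCAAT, the box of nuclear factor Y, was in 36.5% and 23.8% (34.6% and 36.1%). GGGCGG, the GC box of Sp factors, was in 45.9% and 46.0% (44.9% and 42.7%). The TATA box, as TATAAA, was in 9.46% and 11.1% (11.6% and 13.5%). A run of at least 12 A or 12 T stood in 13.5% of ERα-only promoters (10 of 74, interval 7.51 to 23.1) and 20.6% of ERβ-only promoters (13 of 63, 12.5 to 32.2), against 1.95% of all. It was also in 20.2% of the 415, inside the interval of each direction.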

How the data were processed

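Peaks of 4 HepG2 libraries were analysed, with the 2 PPARα-alone lists as a measure that did not choose regions. Per the submitters' processing notes, builds were hg38 and GRCh38.p13. The tools listed there are MACS2 2.2.7.1, Bowtie 1.0.1, Trim Galore 0.6.4, DiffBind 2.16, ChIPseeker 1.18.0 and HOMER 4.11. The role of each and the control are not given in the sources used here. The deposited lists hold a fold (a ratio of a summit to its local background), −log10 p and −log10 q, and a score that is 10 times the −log10 q. Each list is of 1 library, and folds were not compared between lists.

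Fragments and background at a summit were recovered from the deposited fold, read as fragments plus 1 over background plus 1, and −log10 p, read as a Poisson tail. A whole number returned the −log10 p within 0.001 for 100% of peaks. Few fragments mean less precision. Coordinates are 1-based. Genes and promoters came from RefSeq tables of GRCh38.p14, whose chromosome numbering the files' build shares. Near means within 3 kb. Genes were named by rank of −log10 q within lists (25 per direction, up to 4 per gene list), by regions per span, width, distance, or regions in both directions. PPARA, ESR1 and ESR2 were always named. Some genes the rule names are not reported here. PSMA6, SPTSSA, SRBD1, DOK5, CCT4 and the genes of the printed sequences, COG4 and NFIB apart, were chosen after their values were seen. Members, lists and rule were set with earlier results of these data known. Library values were compared by exact permutation tests. Alternatives changed the q threshold, list length, overlap, background, near distance, gene types and libraries. Steps were tested on simulated data. Scripts ran in Python 3.11.15 with SciPy 1.17.1, NumPy 2.4.6, pandas 2.3.3 and, for plots, Matplotlib 3.10.9.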

Additional observations from a re-analysis of the deposited data

How the results depend on the processing

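Peak presence, 2 libraries a group and confounded depth and background limit these results. Counts of ERα-only regions (8063), ERβ-only regions (8955) and regions of all 4 libraries (307) stayed within 1.5 times under summits within 100 bp and gaps of up to 500 bp. With −log10 q of 5 or more, ERα-only regions numbered 4654, regions of all 4 libraries 128, genes near ERα-only regions 1120, the share of ERα-only regions near a gene end was 19.4% and their width 380 bp. With lists of equal length, 170 regions were in all 4 libraries, beside 5407 ERα-only and 8146 ERβ-only regions. A background of at most 3 times left 1400 ERβ-only regions, 200 in all 4 libraries and 330 genes near ERβ-only regions, with shares near a gene end of 16.9% (ERα) and 19.4% (ERβ) and widths of 373 and 396 bp. That setting kept 74.3% and 76.9% of ERα peaks but 21.7% and 24.8% of ERβ peaks.

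With near set to 1 kb, genes numbered 593 (ERα) and 703 (ERβ) and shares were 6.55% and 7.15%. At 10 kb they were 4826 and 5714 genes and 41.3% and 43.0%. With protein-coding genes only, they were 810 and 844 genes and 8.97% and 8.60%. Taken as the mean of both peaks, width was 354.5 and 363.5 bp. Regions whose peaks share no edge, an alternative chosen after seeing the data, numbered 1895 (ERα) and 1076 (ERβ). Leaving out each library in turn gave 8272 to 25443 ERα-only regions, 9372 to 20842 ERβ-only regions, 516 to 831 in all 3 libraries that were left, 1790 to 5201 and 2055 to 4513 genes, and widths of 339 to 376 and 344 to 383 bp. Counts rose there because 1 list then stands for a group. The other causes were not tested. No paired analysis was possible because the labels give the groups no shared replicate numbers.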

Other observations

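Regions with peaks in all 4 libraries are named here by the 10 that ranked highest. The region at C6orf52, chr6:10694265-10694922, had 219 and 238 fragments in the ERα libraries and 284 and 318 in the ERβ libraries. COMMD1, a regulator of copper handling and NF-kappaB, had 182, 184, 239 and 291 in the same order, and XPNPEP3, a mitochondrial aminopeptidase, 117, 127, 170 and 179. EIF2S3, a subunit of the initiation factor eIF2, had 35, 58, 98 and 121 on the X chromosome. DNAJC11, a mitochondrial protein gene, had 56, 62, 87 and 114. MAPT, the gene of the neuronal protein tau, had 17, 28, 34 and 58, and a region 25782 bp from RESF1 had 22, 30, 40 and 45. In each of these both ERβ libraries had more fragments than both ERα libraries. These counts are not scaled to density, and the ERα libraries were sparser. They had 779.7 and 725 bp of genome per background fragment, against 537 and 449.8 bp with ERβ. The counts therefore do not rank the groups by occupancy. The groups overlapped at OSBPL9, a lipid transfer protein gene, with 15, 19, 17 and 24, and at GADD45GIP1, a mitochondrial ribosomal protein gene, with 60, 56, 53 and 75 at chr19:12957187-12957580. GADD45GIP1 also had an ERβ-only region nearby. MLXIP, a glucose-sensing transcription factor, had 39, 36, 84 and 95 and peaks in both PPARα-alone libraries.

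The strongest ERα-only region of all was far from a protein-coding gene. It lay at chr14:34347673-34348873, 84019 bp from SPTSSA, a gene of sphingolipid synthesis, and had 78 and 88 fragments over a background of 2.57 in both libraries. SRBD1 held another inside its span, with 41 and 42 fragments. Among ERβ-only regions, DOK5, an adaptor of receptor tyrosine kinases, held the strongest inside its span, at chr20:54566017-54566423, with 44 and 62 fragments over a background of 2.57, and peaks in both PPARα-alone libraries. CCT4, a chaperonin subunit, held one of 52 and 66 fragments.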
